A study of Mus musculus with 24 samples.

Results

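The 10 Kruppel-like factor genes Klf2, Klf3, Klf4, Klf5, Klf6, Klf7, Klf9, Klf10, Klf13 and Klf15 were taken by name from 35855 mouse genes and followed across 24 libraries of sorted tracheal epithelial cells. All 10 passed the filter on low counts, which left 12211 genes for testing. The libraries came from untreated wild-type female mice, of the C57BL/6 strain by the series title, and the labels give no age. Each library held RNA of 1000 cells and belonged to 1 of 3 groups of 8: cells labelled BCAM HI and BCAM LO (called here BCAM high and BCAM low; BCAM is basal cell adhesion molecule, a laminin-binding surface protein) and cells labelled as differentiated epithelial cells. The series title places the BCAM-sorted cells among basal cells, from which the airway lining is renewed. Every group had 5 libraries of batch 1 (replicates 1 to 5) and 3 of batch 2 (replicates 6 to 8), and the labels do not say what a batch stands for. Nothing in the labels says that replicates came from separate animals, so the p-values measure the spread between these libraries, which may be technical.

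Kruppel-like factors are zinc-finger proteins that bind GC-rich and CACCC sequences in promoters and enhancers, sites they share with the related Sp proteins. Some members, such as KLF3, KLF9, KLF10 and KLF13, recruit CtBP or Sin3 corepressors, while KLF2, KLF4, KLF5, KLF6, KLF7 and KLF15 can activate transcription with histone acetyltransferases. In epithelia KLF4 is best known for differentiation and barrier genes and KLF5 for proliferation and lineage genes, and many members are themselves rapidly induced by serum, shear stress, glucocorticoids or TGF-beta.

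Upstream sequences are shown for the 4 factors with a RefSeq promoter whose levels moved in opposite directions between batches of differentiated cells: Klf3 and Klf13, which were lower in batch 2, and Klf4 and Klf9, which were higher. RefSeq promoters (mouse build GRCm38.p6) were matched for 8 of the 10 members, the others being Klf5 and Klf10. Each stretch lies upstream of the first annotated base of the gene, directly so for Klf3, Klf9 and Klf13, and is written 5′ to 3′ on the strand of the gene. They are the 250 bases upstream at chr4:55532476-55532725 (minus strand) for Klf4, chr7:63938916-63939165 (minus strand) for Klf13 and chr19:23140976-23141225 (plus strand) for Klf9, and 117 bases at chr5:64803271-64803387 (plus strand) for Klf3. Capitals mark, on either strand, the GC box GGGCGG, the box CACCC that many of these factors bind and the E-box CACGTG; neighbouring or overlapping matches run together.
Klf3: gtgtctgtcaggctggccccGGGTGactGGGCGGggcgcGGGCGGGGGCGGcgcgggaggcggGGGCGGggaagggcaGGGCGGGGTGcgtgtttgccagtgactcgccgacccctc
Klf13: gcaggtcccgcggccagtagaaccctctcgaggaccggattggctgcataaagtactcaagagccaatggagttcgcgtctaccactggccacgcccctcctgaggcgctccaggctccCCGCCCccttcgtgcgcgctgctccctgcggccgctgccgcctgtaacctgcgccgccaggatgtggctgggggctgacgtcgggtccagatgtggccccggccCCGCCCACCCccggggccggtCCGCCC
Klf4: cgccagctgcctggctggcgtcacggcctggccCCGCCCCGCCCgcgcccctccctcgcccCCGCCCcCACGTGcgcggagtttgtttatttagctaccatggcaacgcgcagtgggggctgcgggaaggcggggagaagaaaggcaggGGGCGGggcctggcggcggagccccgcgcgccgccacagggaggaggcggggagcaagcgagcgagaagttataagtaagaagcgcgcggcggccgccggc
Klf9: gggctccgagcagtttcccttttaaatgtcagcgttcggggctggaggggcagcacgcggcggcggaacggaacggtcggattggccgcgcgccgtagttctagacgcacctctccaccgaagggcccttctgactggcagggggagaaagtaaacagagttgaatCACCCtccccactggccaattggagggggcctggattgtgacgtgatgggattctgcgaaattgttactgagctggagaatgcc

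The Klf3 stretch held 5 GC boxes, Klf4 held 4, Klf13 held 3 and Klf9 held 0. Over the full 250 bases, 7 of the 8 matched members had a GC box, against 32.7% of 32851 promoters of the same length. Not all of these windows are upstream of the annotated gene: that of Klf7 lies within it, and those of Klf2, Klf3 and Klf6 reach into it. A CACCC box was present in 6 of 8 members against 52.0% of promoters, and the E-box CACGTG, to which clock and MYC proteins bind, in 3 of 8 (Klf4, Klf6 and Klf15) against 6.02%. The half-site TGTTCT of the glucocorticoid receptor was in 0 of the 8, against 16.1% of promoters. GC content was 79.5% in the Klf3 stretch, 74% for Klf4, 71.6% for Klf13 and 59.6% for Klf9, against a median of 52.4% over all promoters. Over the full windows of the 8 members it was 59.2% (Klf7) to 78.4% (Klf3), and the shares of promoters with each box were not matched for GC content. These matches describe letters in a window and not bound sites.

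Estimated counts totalled 1824619 to 4440072 per library. Krt5, the basal keratin, ran from 1262 to 2135 CPM (counts scaled to a common library total with TMM factors) in BCAM high and 701 to 1122 in BCAM low, and it stood at 0 to 2.78 in differentiated. Bcam, whose protein was the sort marker, ran from 324 to 739 CPM in BCAM high and 224 to 457 in BCAM low, which overlapped, and reached 907 in differentiated cells, where batch 1 held 109 to 252 and batch 2 held 458 to 907. The differentiated libraries of batch 2 stood apart. Their summed level of 12 thyroid follicle genes was 83502 CPM in replicate 6, 117190 in replicate 7 and 49664 in replicate 8, against 13855 to 26032 in batch 1, and the summed level of 15 secretory cell genes was 17052 to 116010 CPM against 309490 to 450410. No member of the thyroid list was at 0 in all differentiated libraries. The sum of 6 parathyroid and C cell genes was 567.7 to 29243 CPM in differentiated batch 1 and 18.5 to 432 in batch 2, and that of 12 tuft, ionocyte and neuroendocrine genes 495 to 11639 and 109 to 223. The part of these cell types in the batch differences of the members was not tested. In BCAM low the sum of 15 ciliated cell genes was 341 to 525 CPM in batch 1 and 531 to 908 in batch 2. Because these are bulk samples, fewer cells of a type and less RNA per cell cannot be told apart in any result given here.

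Levels of different genes can be compared only per transcript length, on the TPM scale. Over protein-coding transcripts, Klf6 had the highest mean TPM in BCAM high, 102 ± 29.1 (SD, n = 8), followed by Klf5 at 88.7 ± 27.1 and Klf10 at 77.6 ± 11.9. These neighbours overlapped within 1 SD. Then came Klf4 at 58.7 ± 13.9, Klf13 at 41.2 ± 11.2, Klf3 at 24.8 ± 6.53 and Klf9 at 19.2 ± 7.57 TPM.

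At the low end of BCAM high were Klf7 at 11.5 ± 2.33, Klf15 at 5.94 ± 2.09 and Klf2 at 2.62 ± 1.51 TPM (mean ± SD, n = 8). In BCAM low, Klf5 (91.6 ± 15.3 TPM) stood first and Klf6 (79.9 ± 28.9) second, with overlapping spreads. In differentiated cells Klf6 was first at 51.6 ± 15.2 TPM and Klf5 second at 26.3 ± 11.1. With all transcripts included, Klf6 had 434, 276 and 206 mean TPM in the 3 groups, and 41.5% of its TPM in BCAM high fell on a transcript annotated as a retained intron (Klf6-202) and 34.8% on one annotated for nonsense-mediated decay (Klf6-203). Reads of 38 bp divide poorly between transcripts, so these shares are a description of the authors' estimates. The TPM scale was itself shifted between groups. Over all genes tested, the median change of log2(TPM + 0.1) against differentiated was 0.75 in BCAM high and 0.48 in BCAM low. Group comparisons below therefore rest mainly on counts, where Klf6 differed from differentiated by 0.25 and -0.09 on the log2 scale (edgeR adjusted p = 0.257 and 0.714).

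**Figure D1:**
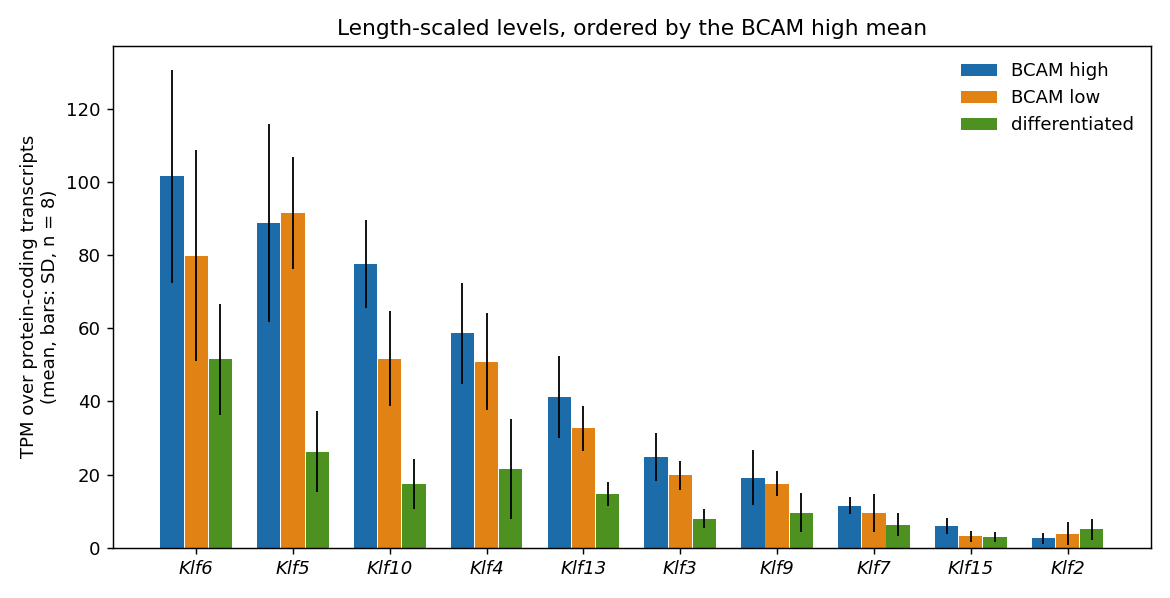
Mean TPM over protein-coding transcripts (vertical axis, linear from 0) for the 10 factors, in BCAM high, BCAM low and differentiated cells; error bars are SD over 8 libraries. Klf6, Klf5 and Klf10 lead in BCAM high at 102, 88.7 and 77.6, and Klf2 is lowest at 2.62. The TPM scale is shifted between groups, so the bars compare factors within a group.

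Most of the factors that differed were higher in the BCAM groups than in differentiated cells, and few separated the BCAM groups from each other. Against differentiated cells, 6 of 10 were called in BCAM high (edgeR quasi-likelihood test, Benjamini-Hochberg adjusted p under 0.05 over all genes tested): Klf3, Klf4, Klf5, Klf10 and Klf13 were higher and Klf2 was lower. Of all genes tested, 41.3% were called there, 19.4% higher and 22% lower. BCAM low also had 6 of 10 called, all higher: Klf3, Klf4, Klf5, Klf9, Klf10 and Klf13, against a background of 33.5% called, 16.3% higher and 17.1% lower. Between BCAM high and BCAM low, Klf10 alone was called, higher in BCAM high, against a background of 7.02% called, 2.43% higher and 4.59% lower. The median log2 fold change of the members was 0.53, 0.51 and -0.02 in these comparisons, against 0.02, 0.02 and 0.00 over all genes tested. The comparisons with differentiated cells share the same 8 differentiated libraries. Without differentiated replicates 6 and 7, the libraries with the most thyroid transcripts, 8 members were called in BCAM high, with Klf6 and Klf9 added. In BCAM low 5 were called, without Klf13. Over all genes 5121 and 4277 of 12644 were called. This alternative was chosen after the data were seen. The remaining differentiated libraries still held 13855 to 49664 CPM of the 12 thyroid genes. In BCAM high that sum was 18.5 to 1309.5 CPM and in BCAM low 29.1 to 261. Of 10 tested thyroid genes, 9 were lower in each BCAM group than in differentiated. The part of thyroid transcripts in these calls was not tested.

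**Figure D2:**
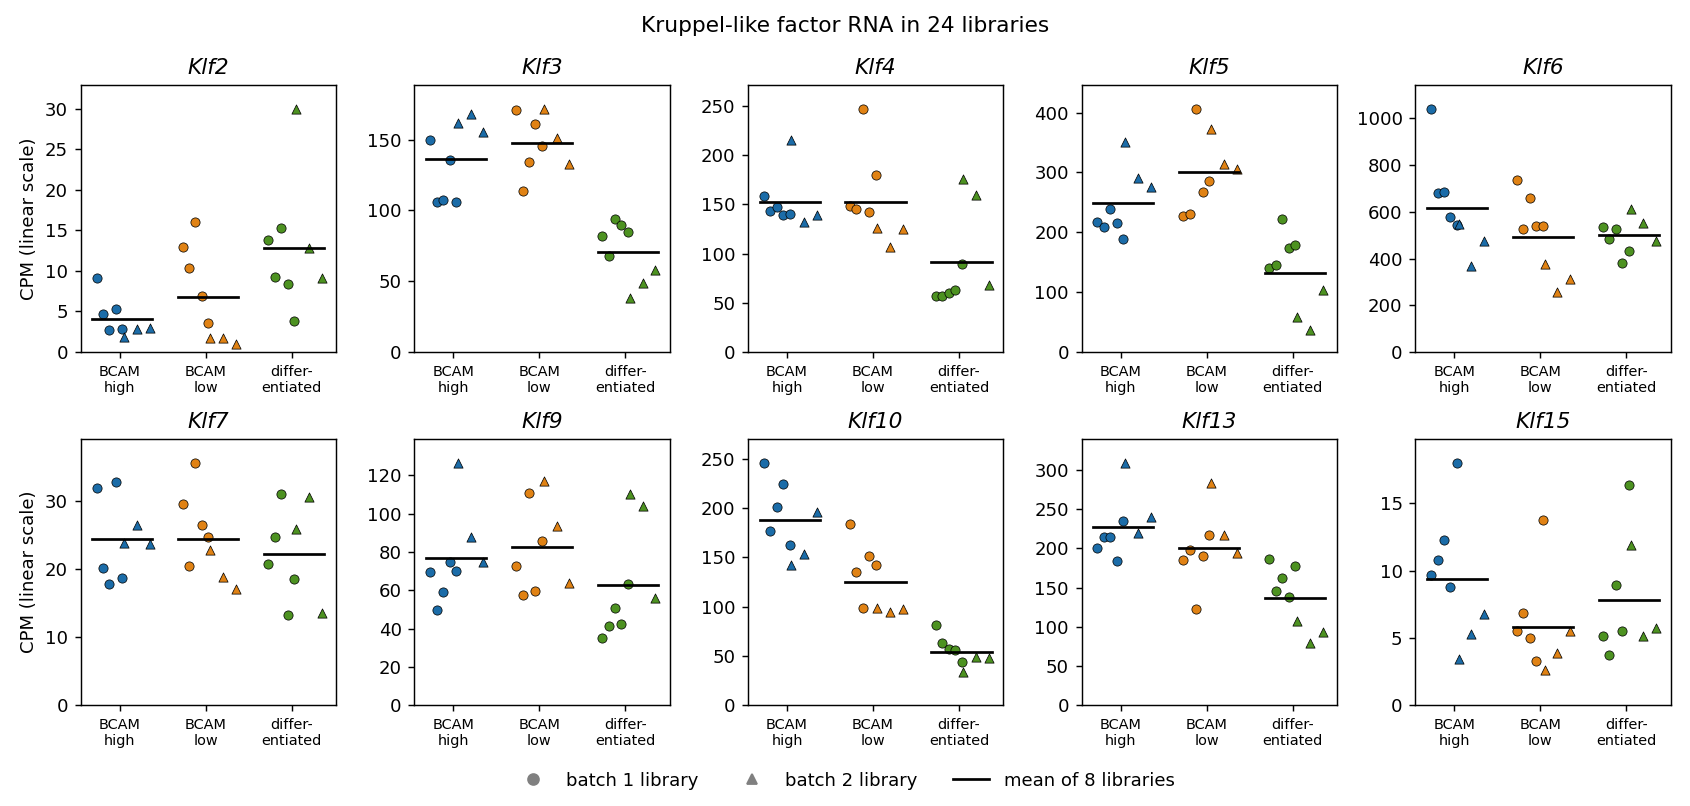
CPM of each factor (vertical axis, linear from 0, scaled per panel) in the 24 libraries; circles are batch 1, triangles batch 2, and the line is the mean of 8. Klf10 has means of 188, 126 and 54.2 in the order BCAM high, BCAM low, differentiated, while Klf4 and Klf9 in differentiated cells are highest in 2 batch 2 libraries.

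**Figure D3:**
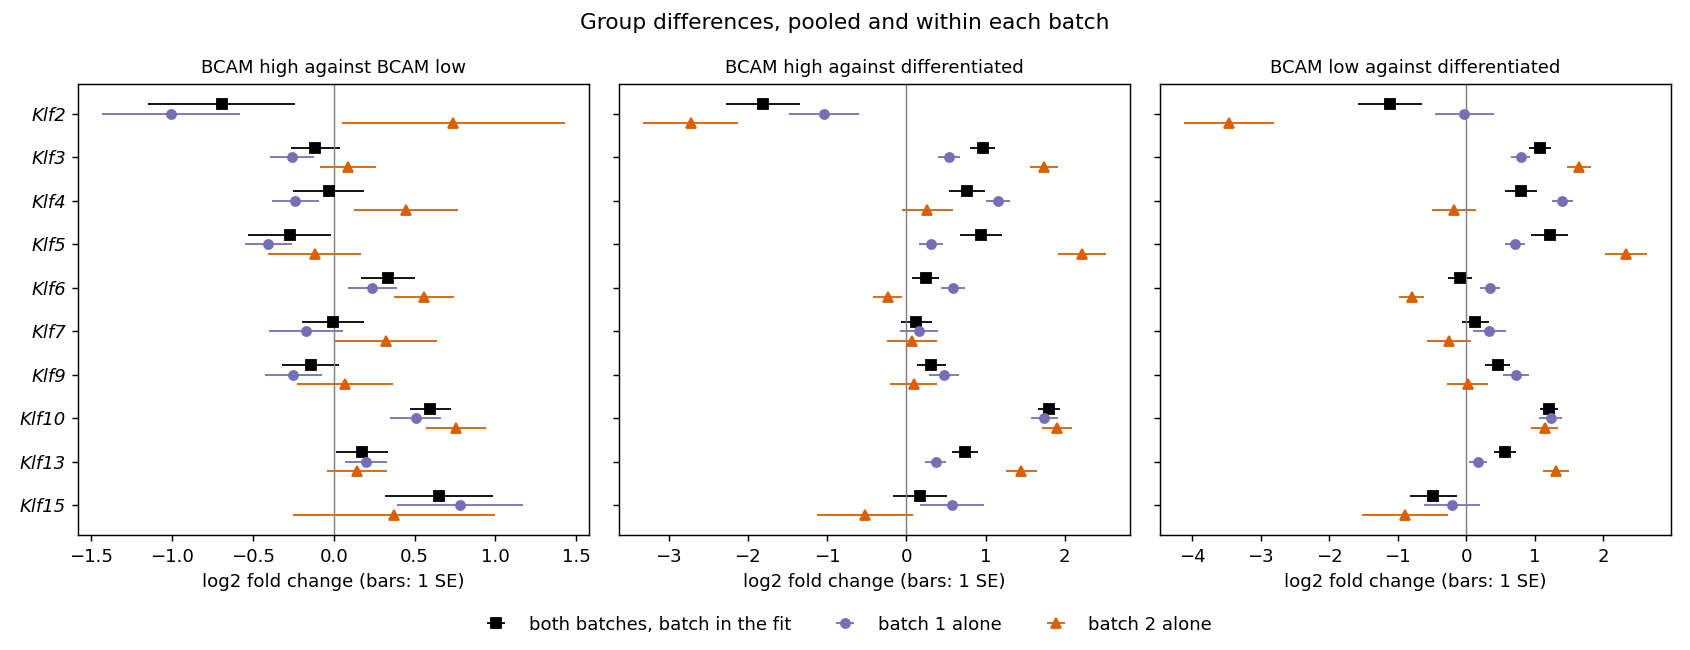
Log2 fold change (horizontal axis, bars 1 SE) of each factor in the 3 comparisons, with both batches in the fit (squares), batch 1 alone (circles) and batch 2 alone (triangles). Klf10 keeps its size in both batches, 1.74 and 1.90 in BCAM high against differentiated, while Klf5 goes from 0.31 to 2.22.

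Klf10, also called TIEG1, is an early TGF-beta target and a Sin3-recruiting repressor, and it was the most evenly graded member. In BCAM high it ran from 142 to 246 CPM with a median of 187, in BCAM low from 94.3 to 184 with a median of 117, and in differentiated from 33.9 to 81.8 with a median of 52.6. The differentiated libraries did not overlap either BCAM group, and the BCAM groups overlapped each other. Between BCAM high and BCAM low the level was 1.51-fold higher, a log2 fold change of 0.60 (SE 0.13), in 8 of 8 same-numbered pairs (edgeR adjusted p = 0.00375). Batch 1 alone gave 0.51 and batch 2 alone 0.76 (edgeR adjusted p = 0.0574 and 0.0282). The call was also lost with offsets for transcript length, at 0.35 (edgeR adjusted p = 0.257), and missed the threshold with limma on log2(TPM + 0.1), at 0.61 (limma adjusted p = 0.0539). Markers of other epithelial cells moved in the same comparison: 9 of 14 suprabasal and hillock genes, 8 of 14 ciliated cell genes and 7 of 15 secretory cell genes were lower in BCAM high, and 5 of 15 basal cell genes were higher. Their summed levels in BCAM high and BCAM low were 2895 to 4142 and 3723 to 6720 CPM for suprabasal and hillock genes, 54.8 to 322 and 341 to 908 for ciliated, 35242 to 48669 and 42143 to 98503 for secretory and 9791 to 13003 and 7766 to 9626 for basal genes. Of these lists, Fam183b, a ciliated cell gene, was the one gene at 0 in every library of a group, BCAM low. Their part in the Klf10 difference was not tested.

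Against differentiated cells Klf10 was 3.49-fold higher in BCAM high (log2 fold change 1.80, SE 0.13, 8 of 8, edgeR adjusted p = 9.72e-12). In BCAM low it was 2.30-fold higher (1.20, SE 0.13, 8 of 8, edgeR adjusted p = 3.70e-08). Its interactions with batch were small, at 0.16 (SE 0.27) for BCAM high and -0.09 (SE 0.27) for BCAM low against differentiated, and neither was called (edgeR adjusted p = 0.805 and 0.883). Leaving out differentiated replicates 6 and 7 gave 1.77 and 1.17. Within BCAM low, Klf10 was lower in batch 2, at 94.3, 97.3 and 99.2 CPM, than in batch 1, at 99.3 to 184 CPM (log2 fold change -0.56, SE 0.19, edgeR adjusted p = 0.0498). On leaving out any of 11 libraries the edgeR adjusted p-value passed above 0.05, up to 0.154, while the log2 fold change over all 24 such fits stayed between -0.66 and -0.46.

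Klf11 (TIEG2), the closest relative of Klf10, followed the same order: 0.56 higher in BCAM high than in BCAM low, 1.39 higher than in differentiated, and 0.83 higher in BCAM low than in differentiated on the log2 scale (edgeR adjusted p = 0.0194, 4.79e-08 and 2.11e-04). Among 11 tested early TGF-beta targets, 2 were higher in BCAM high than in BCAM low, Tgfbi (1.05), a secreted matrix protein, and Tgif1 (0.42), a corepressor of SMAD proteins. Against differentiated cells 6 were higher and 1 lower in BCAM high, with Tgfbi at 2.89 and Id3, an inhibitor of basic helix-loop-helix factors, at -2.16. In BCAM low 5 were higher and 1 lower, with Skil, a SMAD corepressor, at 0.67. The list medians were 0.26, 0.80 and 0.46. Among all genes tested, 7.02%, 41.3% and 33.5% were called in the same comparisons.

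Klf3 and Klf13, both corepressor-recruiting factors, were higher in the BCAM groups, and for both the difference from differentiated cells was larger in batch 2. Klf3 ran from 106 to 168 CPM in BCAM high (median 143), from 114 to 172 in BCAM low (median 148) and from 38.4 to 93.9 in differentiated (median 74.6). The differentiated libraries lay below all 16 others. The log2 fold change against differentiated was 0.97 (SE 0.16) in BCAM high and 1.08 (SE 0.16) in BCAM low, each in 8 of 8 pairs (edgeR adjusted p = 1.10e-05 and 3.53e-06). Between the BCAM groups it was -0.11 (SE 0.15, 2 SE interval -0.42 to 0.19), not called (edgeR adjusted p = 0.744).

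In differentiated cells Klf3 was 38.4, 48.6 and 58.0 CPM in batch 2 and 67.4 to 93.9 in batch 1, with no overlap (log2 fold change -0.78, SE 0.17, edgeR adjusted p = 0.00101). In BCAM high the batch 2 libraries (155 to 168 CPM) lay above the batch 1 libraries (106 to 150 CPM), and this was not called (0.42, SE 0.15, edgeR adjusted p = 0.0889). The gap between BCAM high and differentiated thus went from 0.54 in batch 1 to 1.73 in batch 2, an interaction of 1.20 (SE 0.23, edgeR adjusted p = 5.86e-04). With limma on log2(TPM + 0.1) the interaction was not called (1.19, limma adjusted p = 0.122). Without differentiated replicates 6 and 7, the libraries with the most thyroid transcripts, it was 0.94 and the batch difference in differentiated cells -0.52. The part of the thyroid transcripts in the Klf3 result was not tested.

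Klf13, which acts through Sin3A, ran from 185 to 309 CPM in BCAM high (median 217), from 123 to 283 in BCAM low (median 197) and from 79.8 to 186 in differentiated (median 142). BCAM low overlapped differentiated and BCAM high did so barely, with its lowest library at 185 against 186 CPM. The log2 fold changes against differentiated were 0.74 (SE 0.16, 8 of 8) in BCAM high and 0.56 (SE 0.16, 6 of 8) in BCAM low (edgeR adjusted p = 5.43e-04 and 0.00871). Batch 1 alone gave 0.37 and 0.17, and batch 2 alone 1.45 and 1.31; the BCAM low value in batch 1 was not called (edgeR adjusted p = 0.344), nor was it without differentiated replicates 6 and 7 (0.37, edgeR adjusted p = 0.0593). In differentiated cells Klf13 was 79.8, 93.0 and 108 CPM in batch 2 against 138 to 186 in batch 1.

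Of 15 tested cofactors of Kruppel-like factors, 2 were higher than in differentiated cells in BCAM high, the acetyltransferase genes Crebbp (0.63) and Ep300 (0.63), and 6 were higher in BCAM low, with Rcor1, a corepressor scaffold, at 0.69 and Ep300 at 0.67. Over all genes 19.4% and 16.3% were higher in these comparisons. The list medians, with BCAM high against BCAM low first, were -0.07, 0.08 and 0.23 against 0.00, 0.02 and 0.02 over all genes.

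Klf5, which maintains proliferating epithelial progenitors, was 188 to 352 CPM in BCAM high (median 228), 227 to 406 in BCAM low (median 297) and 35.8 to 223 in differentiated (median 143). It was lower in BCAM high than in BCAM low in 8 of 8 pairs, by -0.27 (SE 0.26) on the log2 scale, and not called (edgeR adjusted p = 0.609). Against differentiated it was higher by 0.94 (SE 0.27) in BCAM high and 1.22 (SE 0.27) in BCAM low, each in 8 of 8 (edgeR adjusted p = 0.00653 and 0.00109). The BCAM low libraries lay above all differentiated ones. The interaction with batch was the largest among the members for BCAM high, at 1.91 (SE 0.32, edgeR adjusted p = 3.13e-04), with 0.31 in batch 1 (edgeR adjusted p = 0.105) and 2.22 in batch 2 (edgeR adjusted p = 2.59e-04).

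In differentiated cells Klf5 was 58.2, 35.8 and 103 CPM in replicates 6, 7 and 8, below the 141 to 223 of batch 1 (log2 fold change -1.39, SE 0.24, edgeR adjusted p = 1.57e-04). The summed level of 15 basal cell genes in these libraries was 635, 575 and 1306 CPM, against 2365 to 2878 in batch 1, with Krt14 at 0 in all 3. Gene by gene the list went both ways, with 5 higher and 5 lower in batch 2 and a median log2 fold change of 0.01. The summed basal level and the thyroid level changed between the same batches as Klf5, and their part in the result was not tested. Without replicates 6 and 7 the batch difference, now resting on replicate 8, was -0.74 and was not called (edgeR adjusted p = 0.123).

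Klf4, a differentiation and barrier factor, showed the reverse dependence on batch, called for BCAM low only. It ran from 132 to 216 CPM in BCAM high (median 142), from 106 to 247 in BCAM low (median 144) and from 56.4 to 176 in differentiated (median 65.8). In batch 1 the differentiated libraries, at 56.4 to 89.5 CPM, lay below every BCAM library, and in batch 2 they were 176, 160 and 68.3 CPM in replicates 6, 7 and 8. Fitted over both batches, Klf4 was higher than in differentiated by 0.77 (SE 0.23, 7 of 8) in BCAM high and 0.80 (SE 0.23, 6 of 8) in BCAM low (edgeR adjusted p = 0.00837 and 0.00931). Batch 1 alone gave 1.16 and 1.40, and batch 2 alone 0.27 and -0.18, the latter pair not called (edgeR adjusted p = 0.589 and 0.775). Without differentiated replicates 6 and 7 the values over both batches were 1.24 and 1.23. The interaction with batch was -0.88 (SE 0.33) for BCAM high, not called, and -1.58 (SE 0.33) for BCAM low (edgeR adjusted p = 0.0967 and 0.00189). Without those replicates the BCAM low interaction was -0.61.

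Between the BCAM groups Klf4 differed by -0.03 (SE 0.22, 2 SE interval -0.47 to 0.41). The batch difference of Klf4 in differentiated cells was 1.04 (SE 0.23, edgeR adjusted p = 0.00184) and 0.07 without replicates 6 and 7 (edgeR adjusted p = 0.957). The libraries with the most Klf4 were those with the most thyroid transcripts, and the part of those transcripts in the result was not tested.

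Of 16 tested epithelial genes known as targets of KLF4 or KLF5, 4 were called between the BCAM groups, all lower in BCAM high, with the suprabasal keratin Krt4 at -1.41 and the tight junction gene Cldn4 at -0.95. This list shares Krt4, Krt8, Krt13, Krt18, Cldn4 and Sprr1a with the suprabasal and hillock markers, of which 9 of 14 were lower in BCAM high, and the part of that cell type was not tested. Against differentiated cells, 7 were higher and 5 lower in BCAM high, with the cornified envelope gene Sprr2a3 at 4.27, the desmosomal gene Dsp at 1.40, the simple keratin Krt18 at -1.23 and Cldn7 at -1.17. In BCAM low, 8 were higher and 2 lower, with Krt13 at 3.34 and Epcam, an epithelial adhesion gene, at -0.42. The list medians were -0.32, 0.29 and 0.38, and 7.02%, 41.3% and 33.5% of all genes were called in the same comparisons. Sprr2a3 has near-identical relatives, so its estimated counts are uncertain.

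Klf6, an injury-responsive factor, was the member with the most counts, at 370 to 1040 CPM in BCAM high (median 563), 257 to 737 in BCAM low (median 531) and 380 to 611 in differentiated (median 504). All 3 groups overlapped. It was higher in BCAM high than in BCAM low in 8 of 8 pairs by 0.34 (SE 0.17), which was not called (edgeR adjusted p = 0.249). Limma called it at 0.67 on both log2(TPM + 0.1) and log2(TPM + 1), where the median of all genes was 0.26 and 0.23 (limma adjusted p = 0.0437 and 0.0366). Within the BCAM groups it was lower in batch 2. BCAM low held 375, 257 and 312 CPM in batch 2 against 525 to 737 in batch 1, with no overlap (log2 fold change -0.93, SE 0.18, edgeR adjusted p = 8.91e-04). BCAM high held 547, 370 and 477 CPM against 542 to 1040 (-0.60, SE 0.18, edgeR adjusted p = 0.0365). The BCAM high call was lost without replicate 1, the library at 1040 CPM (-0.43, edgeR adjusted p = 0.122), and without any of 4 other BCAM high libraries, with edgeR adjusted p-values up to 0.245.

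In differentiated cells Klf6 differed between batches by 0.21 (SE 0.18) and was not called (edgeR adjusted p = 0.441). The comparison with differentiated therefore turned with batch. BCAM low was 0.35 above differentiated in batch 1 and -0.80 in batch 2, an interaction of -1.14 (SE 0.25, edgeR adjusted p = 0.00257). For BCAM high the values were 0.59 and -0.24, an interaction of -0.82 (SE 0.25, edgeR adjusted p = 0.0389) that was lost on leaving out any of 7 libraries. In BCAM low of batch 2, 13 of 14 tested ciliated cell genes were higher than in batch 1, and the sum of 14 immune genes was 18.4 to 44.6 CPM against 54.5 to 129 in batch 1, with Cd3e, S100a8 and S100a9 at 0. The sum of 15 secretory cell genes was 87391 to 98503 CPM there against 42143 to 65218, with 7 of 15 higher. In BCAM high of batch 2, 5 of 10 tested thyroid genes were higher, and the thyroid sum was 465.5, 1309.5 and 96.4 CPM in replicates 6, 7 and 8 against 18.5 to 58.8 in batch 1. Replicate 7 also held the least Klf6 of BCAM high. In differentiated cells, replicates 6 and 7, with the most thyroid transcripts, held the most Klf6, at 611 and 552 CPM. The part of these markers in the lower Klf6 was not tested.

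All 24 immediate early genes, the class of rapid-response genes to which Klf6, Klf4, Klf2 and Klf10 are often assigned, passed the filter. Between BCAM high and BCAM low, 7 were called, all higher, with Ccn1, a matricellular gene, at 1.43 and Egr2, a zinc-finger factor, at 0.78. Against differentiated cells 12 were higher and 1 lower in BCAM high, with Egr2 at 1.90, the cytokine feedback gene Socs3 at 1.27 and Ier2 at -0.78. In BCAM low 6 were higher and 2 lower, with the AP-1 gene Fosl2 at 0.79, Ccn1 at -0.80 and Ier3 at -0.75. In batch 2 against batch 1, BCAM low had 6 called, all lower, BCAM high 4 higher and 3 lower, and differentiated 6 higher and 4 lower. The list medians were 0.27, 0.36 and 0.30 for the group comparisons, where 7.02%, 41.3% and 33.5% of all genes were called. Between batches 11.1% of all genes were called in BCAM low, 8.04% in BCAM high and 20.1% in differentiated.

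Klf9, a glucocorticoid- and clock-responsive repressor, ran from 49.9 to 126 CPM in BCAM high (median 72.4), from 57.5 to 117 in BCAM low (median 79.2) and from 35.1 to 110 in differentiated (median 53.3). All 3 groups overlapped. The BCAM low difference from differentiated was 0.46 (SE 0.18, 7 of 8) and just passed the threshold (edgeR adjusted p = 0.0495). It did not pass in 5 of 12 alternatives, nor when any 1 of 17 libraries was dropped. Without BCAM low replicate 3 it was 0.34 (edgeR adjusted p = 0.127). Batch 1 alone gave 0.73 (edgeR adjusted p = 0.00327) and batch 2 alone 0.02 (edgeR adjusted p = 0.973). The BCAM high difference, 0.32 (SE 0.18), was not called (edgeR adjusted p = 0.161). It was called in batch 1 alone (0.48, edgeR adjusted p = 0.049) but not in batch 2 alone (0.10, edgeR adjusted p = 0.851), and it was called without differentiated replicates 6 and 7 (0.57, edgeR adjusted p = 0.00958). The interaction with batch was called for neither group. It was -0.37 (SE 0.35) for BCAM high and -0.70 (SE 0.35) for BCAM low (edgeR adjusted p = 0.608 and 0.218).

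Like Klf4, Klf9 was high in differentiated replicates 6 and 7, at 110 and 104 CPM, and 56.0 in replicate 8, against 35.1 to 63.3 in batch 1. The batch difference of 0.94 (SE 0.25, edgeR adjusted p = 0.00686) was lost without replicate 6 (0.77, edgeR adjusted p = 0.0629) or replicate 7 (0.82, edgeR adjusted p = 0.0554). In BCAM high the batch difference was 0.57 and in BCAM low 0.24, neither of them called (edgeR adjusted p = 0.147 and 0.584).

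Klf15, a fasting- and glucocorticoid-responsive regulator of amino acid metabolism, was low, with 6 to 75 counts per library. It ran from 3.45 to 18.0 CPM in BCAM high (median 9.23), from 2.65 to 13.7 in BCAM low (median 5.29) and from 3.71 to 16.4 in differentiated (median 5.66). The groups overlapped. It was higher in BCAM high than in BCAM low in 8 of 8 pairs by 0.65 (SE 0.33), which was not called (edgeR adjusted p = 0.267). Against differentiated the values were 0.17 (SE 0.34) and -0.48 (SE 0.35), neither called (edgeR adjusted p = 0.722 and 0.306).

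Among 14 tested genes induced by the glucocorticoid receptor, 1 was higher in BCAM high than in BCAM low, the metallothionein gene Mt2 (0.82). Against differentiated cells, 4 were higher and 3 lower in BCAM high, with Tsc22d3, which encodes GILZ, at 1.91 and Mt1 at -1.62. In BCAM low 3 were higher and 3 lower, with the kinase gene Sgk1 at 1.03. The shares of all genes called in these comparisons were 7.02%, 41.3% and 33.5%. In batch 2 the list went both ways in differentiated cells, with 5 higher and 5 lower (median 0.17), while 2 were called in BCAM high and 4 in BCAM low, all lower. The background of calls between batches was 20.1%, 8.04% and 11.1% of genes in that order. Tsc22d3 was lower in all 3 groups, by -1.94 in differentiated, -1.31 in BCAM high and -1.23 in BCAM low (edgeR adjusted p = 8.43e-04, 0.0242 and 0.0268). Of 6 tested targets of KLF15, 3 were higher in both BCAM groups than in differentiated, among them Prodh (1.15 and 0.99), which starts proline breakdown, and Fbxo32 (1.01 and 0.93), a ubiquitin ligase gene. Among all genes tested, 19.4% and 16.3% were higher there. The lipid gene Acsl1 was lower in BCAM high than in either other group (-1.04 and -1.52).

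Clock genes, for which Klf9 and Klf10 are known outputs, also differed between batches. Arntl, the activator BMAL1, was lower in batch 2 by -1.43 in differentiated, -1.41 in BCAM high and -1.34 in BCAM low (edgeR adjusted p = 1.89e-05, 1.35e-05 and 1.68e-05). The output gene Dbp was higher by 3.33, 3.90 and 3.18 in the same order (edgeR adjusted p = 6.95e-04, 4.15e-05 and 2.53e-04). Of 9 tested repressor and output genes, 4 were higher and 1 lower in batch 2 of differentiated, 7 were higher in that of BCAM high and 6 in that of BCAM low. The shares of all genes called higher were 9.98%, 4.93% and 6.48%. For Klf10 the batch differences were -0.46, -0.30 and -0.56, again in that order, with the BCAM low value called, and for Klf9 they were 0.94, 0.57 and 0.24, with the differentiated value called. The shifts of Arntl and Dbp were thus called in every group, and those of Klf9 and Klf10 were not. The Klf10 value in BCAM low lay close to the threshold (edgeR adjusted p = 0.0498). The Klf9 value in differentiated cells was 0.26 without replicates 6 and 7, where replicate 8 alone stands for batch 2. The part of clock genes in the batch differences of Klf9 and Klf10 was not tested.

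Klf2, a factor of endothelial and lymphocyte quiescence that is induced through the MEK5-ERK5-MEF2 pathway, was at 2 to 70 counts per library. It ran from 1.88 to 9.09 CPM in BCAM high (median 2.92), from 1.01 to 16.0 in BCAM low (median 5.21) and from 3.82 to 29.9 in differentiated (median 11.0). The groups overlapped. It was lower in BCAM high than in differentiated by -1.81 (SE 0.47), in 8 of 8 pairs (edgeR adjusted p = 0.00246). Batch 1 alone gave -1.04, not called (edgeR adjusted p = 0.0741), and batch 2 alone -2.72. The interaction with batch was not called (-1.68, SE 0.74, edgeR adjusted p = 0.177). Limma on log2(TPM + 0.1) did not call the difference over both batches (-0.83, limma adjusted p = 0.130). Without differentiated replicates 6 and 7 that difference was -1.15 (edgeR adjusted p = 0.0317).

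In BCAM low, Klf2 was 1.76, 1.71 and 1.01 CPM in batch 2 and 3.55 to 16.0 in batch 1, with no overlap (log2 fold change -2.69, SE 0.63, edgeR adjusted p = 0.00448). The immune sum named above moved with it in BCAM low. In differentiated cells, where Klf2 averaged most, that sum was 10.7 to 58.0 CPM, below or within the BCAM low range. The sum of 11 endothelial genes was 12.1 to 33.8 CPM in differentiated batch 1 and 50.8 to 55.0 in batch 2, with Cldn5 at 0 in all 8 libraries, against 26.2 to 112 in BCAM low. The part of either cell type in the Klf2 levels was not tested. BCAM low against differentiated was -1.11 (SE 0.47, edgeR adjusted p = 0.0662), with -0.03 in batch 1 alone and -3.46 in batch 2 alone (edgeR adjusted p = 0.967 and 0.0018). Over both batches it passed the threshold with the DESeq2 Wald test (DESeq2 adjusted p = 0.0265) and on leaving out any of 4 libraries, among them BCAM low replicate 3 (-1.36, edgeR adjusted p = 0.0293). Of 6 tested genes of the MEK5-ERK5-MEF2 axis, Mef2a was called, higher than in differentiated by 0.63 in BCAM high and 0.85 in BCAM low. Of 3 tested endothelial targets of KLF2 and KLF4, 1 was called between the BCAM groups, the caveolar gene Cav1 (0.62), which was also higher than in differentiated by 2.26 in BCAM high and 1.64 in BCAM low. The background of calls was 7.02% of genes between the BCAM groups, and 41.3% and 33.5% against differentiated.

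Klf7, a factor of neuronal and progenitor cells, was not called by edgeR in any comparison given here. It ran from 17.9 to 32.9 CPM in BCAM high (median 23.8), from 17.1 to 35.7 in BCAM low (median 23.9) and from 13.3 to 31.1 in differentiated (median 22.7). The 2 SE intervals of its log2 fold changes were -0.39 to 0.38 between the BCAM groups, -0.27 to 0.52 for BCAM high and -0.26 to 0.53 for BCAM low against differentiated. Limma on TPM, where the median of all genes was also shifted upward, called it in BCAM high against differentiated (0.99 with log2(TPM + 0.1), limma adjusted p = 0.00654).

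Between batches, the most members were called in differentiated cells, where the largest share of all genes was also called. There, 5 of 10 were called, Klf4 and Klf9 higher and Klf3, Klf5 and Klf13 lower in batch 2, against a background of 20.1% of genes called, 9.98% higher and 10.2% lower. In BCAM low 3 were called, all lower (Klf2, Klf6 and Klf10; background 11.1%, 6.48% higher and 4.66% lower), and in BCAM high 1, Klf6, lower (background 8.04%, 4.93% higher and 3.11% lower). The BCAM high against BCAM low difference changed with batch for 0 of 10 members by edgeR (2 at an unadjusted p under 0.05, and 0 by the DESeq2 Wald test; background 1.06%, 0.172% upward and 0.884% downward). The difference from differentiated changed with batch for 4 members in BCAM high (background 8.69%, 5.41% upward and 3.28% downward) and 6 in BCAM low (background 11.4%, 6.81% upward and 4.55% downward). Without differentiated replicates 6 and 7, where replicate 8 alone stands for batch 2 and is assumed to vary like the other libraries, 0 of the 5 calls in differentiated cells held, and 2 and 1 members changed with batch. Calls over all genes were also fewer there, at 463 of 12644 for the batch in differentiated cells and 324 and 342 for the interactions, against 2460, 1061 and 1388 of 12211 with all libraries. Klf13 was then at -0.80 with an edgeR adjusted p of 0.0796 and the same log2 fold change as with all libraries.

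**Figure D4:**
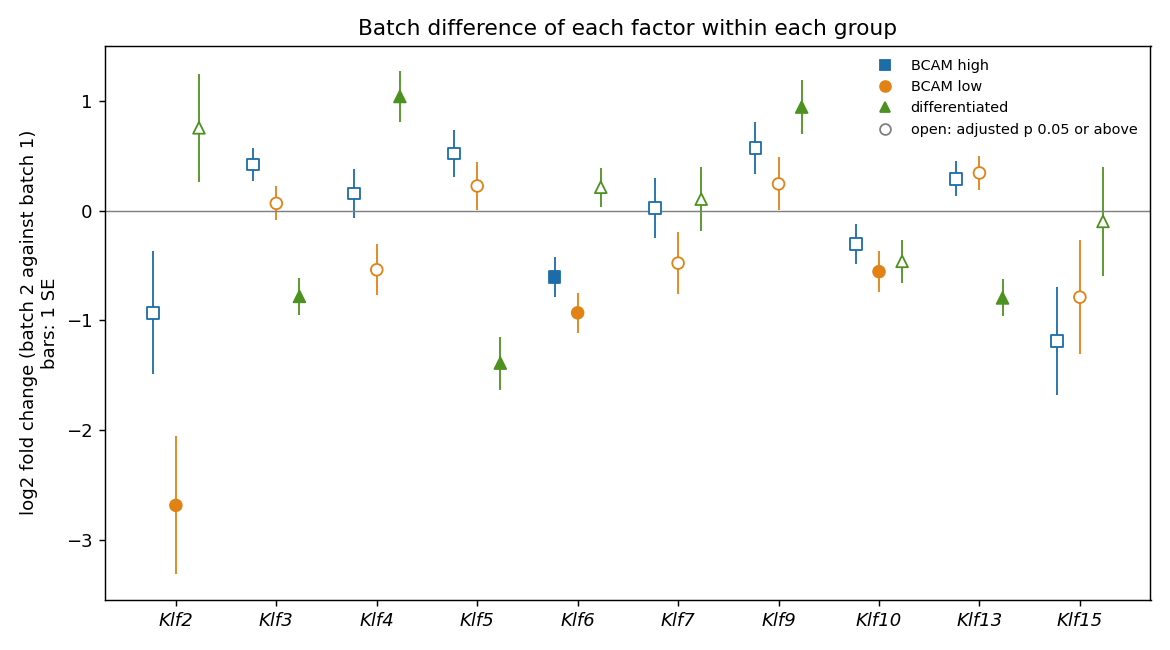
Log2 fold change of batch 2 against batch 1 (vertical axis, bars 1 SE) for each factor within BCAM high (squares), BCAM low (circles) and differentiated cells (triangles); filled symbols have an adjusted p under 0.05. Klf4 and Klf9 rise and Klf3, Klf5 and Klf13 fall in differentiated cells, while Klf6 falls in both BCAM groups.

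**Figure D5:**
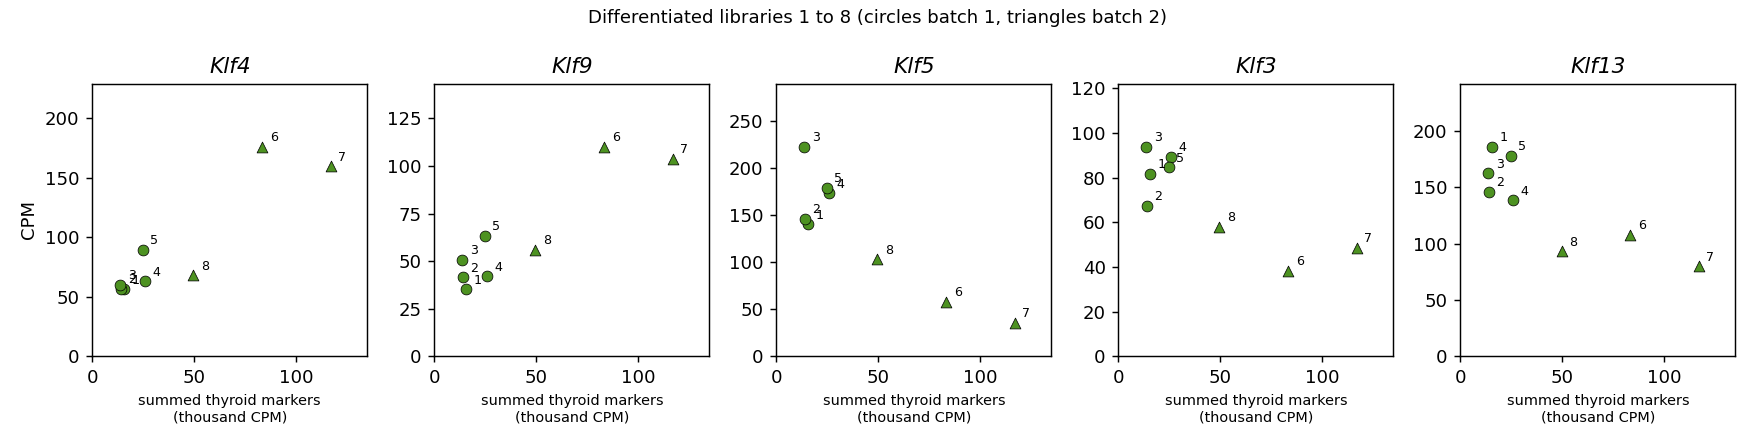
CPM of 5 factors (vertical axis, linear from 0) against the summed level of 12 thyroid follicle genes (horizontal axis, in units of 1000 CPM) in the 8 differentiated libraries, numbered by replicate; circles are batch 1 and triangles batch 2. Klf4 is 176 and 160 CPM in replicates 6 and 7, which hold the most thyroid transcripts, and 68.3 in replicate 8, while Klf5 falls to 35.8 in replicate 7.

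Of the 7 other Kruppel-like factor genes, 3 passed the filter. Besides Klf11, Klf12, a CtBP-binding repressor, was higher than in differentiated by 0.79 in BCAM high and 0.71 in BCAM low. Of 9 Sp genes 4 passed, and Sp1, the general GC-box factor, was higher than in differentiated by 0.76 and 0.88 (edgeR adjusted p = 3.04e-04 and 8.94e-05). In each BCAM group, 2 of the 3 tested Klf genes and 1 of the 4 tested Sp genes were called against differentiated, all higher. Over all genes 19.4% were higher in BCAM high and 16.3% in BCAM low.

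Across the 24 libraries, Pearson correlations of log2 CPM describe which genes followed each member most closely among 9011 genes. The libraries share groups and batches, so group differences enter every value. For Klf10 the closest was Ackr3, a scavenging chemokine receptor (r = 0.950), for Klf5 the basal keratin Krt15 (0.957) and for Klf3 the retinoic acid receptor Rarg (0.954). For Klf13 it was Sgsm3 (0.892), for Klf4 the nuclear factor Nfic (0.884) and for Klf9 the zinc-finger gene Zfp148 (0.876). The other members had looser partners, at 0.792 for Klf6 and Tpm1, 0.778 for Klf2 and St3gal1, 0.723 for Klf15 and Txnip and 0.678 for Klf7 and Npat. Among the members themselves, Klf3 and Klf5 had r = 0.895, and 0.296 after the mean of each group and batch was removed. Klf4 and Klf9 had r = 0.760, and 0.789 within groups and batches.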

How the data were processed

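The deposited tables, 1 per library, hold 1 row per transcript with its estimated count and its TPM, per the file headers. The submitters' processing notes name Picard, kallisto 46.1 and build GRCm39, with no index, options or annotation release stated. The deposited estimated counts carry no normalization, and the authors' TPM values are scaled to transcript length. Transcript identifiers without version were matched to GENCODE M21 (GRCm38): 116374 of 117497 matched, and the rest, 0.317% to 0.594% of counts, were left out. Gene sums were rounded to whole numbers. Gene coordinates are those of M21.

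Genes were tested with edgeR 4.0.16 (R 4.3.3, robust quasi-likelihood F-test, TMM, filterByExpr) in 1 fit over 24 libraries with group and batch. Fitting every combination of group and batch separately gave batch differences and interactions. BH adjustment ran over 12211 genes, with calls under 0.05. The scripts were tested on simulated data. Alternatives were DESeq2 1.42.0, limma 3.58.1 on log2(TPM + 0.1) or log2(TPM + 1), other filters and offsets, no batch term, a replicate block, single batches and libraries left out. Protein-coding transcripts only, and differentiated replicates 6 and 7 left out, were added after seeing the data.

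The members, the 24 gene lists and these tests were chosen with earlier results of these data known. Named besides the members are Bcam and Krt5, up to 2 called genes per direction and comparison from each list (at least 10 CPM on average), and the gene most correlated with each member. Clock and other genes named with batch values, and genes repeated across comparisons, were chosen after their values were seen. Reads carry no molecular identifiers, so amplified copies are counted. Estimated counts divide reads between genes with shared sequence.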

Additional observations from a re-analysis of the deposited data

Results flagged for a closer look

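In 6 of 30 member and group combinations, 1 library lay far from its 7 neighbours by Dixon's criterion at 95%, which chance alone meets in about 1 in 20 groups. These were Klf2 in BCAM high replicate 1 (9.09 CPM) and in differentiated replicate 6 (29.9 CPM), Klf4 in BCAM high replicate 6 (216 CPM) and Klf13 in the same library (309 CPM). The others were Klf6 in BCAM high replicate 1 (1040 CPM) and Klf15 in BCAM low replicate 5 (13.7 CPM).

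From batch 1 to batch 2, the log2 fold change of BCAM high against differentiated moved by 1.20 for Klf3, 1.91 for Klf5, -0.82 for Klf6 and 1.09 for Klf13 (edgeR interaction, adjusted p = 5.86e-04, 3.13e-04, 0.0389 and 0.00194). The same quantity moved in BCAM low by -3.44 for Klf2, 0.85 for Klf3, -1.58 for Klf4, 1.61 for Klf5, -1.14 for Klf6 and 1.14 for Klf13 (edgeR interaction, adjusted p = 0.00362, 0.0122, 0.00189, 0.00123, 0.00257 and 9.96e-04). Klf3 in BCAM low lost its call without differentiated replicate 6 (0.71, edgeR adjusted p = 0.0606). It also did so with protein-coding transcripts only (0.58, edgeR adjusted p = 0.107) and limma on log2(TPM + 0.1) (0.82, limma adjusted p = 0.267). With that limma fit Klf13 was not called in BCAM high (0.87, limma adjusted p = 0.169) or BCAM low (0.58, limma adjusted p = 0.335). Length offsets also lost Klf13 in BCAM low (0.87, edgeR adjusted p = 0.0583). Without differentiated replicates 6 and 7 together, Klf5 (1.26) and Klf13 (1.09) kept their calls for BCAM high, and Klf13 (1.14) for BCAM low.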

How the results depend on the processing

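Genes called between BCAM high and BCAM low numbered 857, and 543 in batch 2 alone, 545 with no batch term and 566 with protein-coding transcripts only (685 to 979 on leaving out 1 library). Members called there were 1, and 0 in batch 1 alone, 0 under length offsets and 2 under limma on log2(TPM + 1). In BCAM high against differentiated 5044 genes were called, and 7688 and 7713 with limma on log2(TPM + 0.1) and log2(TPM + 1) (4768 to 5225). In BCAM low 4086 were called, and 2221 in batch 2 alone (3761 to 4194). On leaving out 1 library, members called ranged from 1 to 1, 6 to 6 and 5 to 7 in these comparisons.

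TPM values moved the median of all genes: with limma on log2(TPM + 0.1) it was 0.26, 0.75 and 0.48 in the 3 comparisons, 0.14 and 0.33 for the batch in BCAM high and differentiated, and 0.22, -0.15 and -0.35 for the interactions, and with log2(TPM + 1) it was 0.23, 0.64 and 0.40. Of called genes, 75.8%, 88.6% and 87.3% were then higher, against 34.7%, 46.8% and 48.9%, and with log2(TPM + 1) 78.2%, 88.3% and 86.6%; that share was 18.8% in batch 2 alone and 23.1% with no batch term between the BCAM groups. Members that gained calls on TPM against differentiated in BCAM high (Klf6 1.06, Klf7 0.99, Klf9 1.21, Klf15 1.06) did so on that shifted scale.

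For the batch in BCAM high, 982 genes were called, and 278 with limma, 633 with protein-coding transcripts and 504 with length offsets (394 to 1163), with 1 member, 0 under each of these, 2 without differentiated 6 and 7, and 0 to 2 on leaving out 1 library. In BCAM low 1360 were called, and 532 with limma and 779 with length offsets (749 to 1541, members 2 to 4). In differentiated 2460 were called, and 463 without replicates 6 and 7 (1506 to 2806); members were 5, 0 without them, 3 with limma (4 to 6). Interactions with batch between the BCAM groups were called for 129 genes, 231 with the DESeq2 Wald test, 68 with limma, 267 with no filter, 66 with protein-coding transcripts and 57 with length offsets (64 to 166, members 0 to 0). For BCAM high against differentiated 1061 were called, 324 without differentiated 6 and 7, 430 with limma and 624 with length offsets (720 to 1513), with 4 members, 2 without those libraries and 1 with limma (3 to 5). For BCAM low 1388 were called, 342 without them, 689 with limma and 774 with length offsets (854 to 1947), with 6 members and 1 without them (5 to 6).

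Signs turned for these members, of which Klf4 in BCAM low against differentiated is the one called with all libraries (0.80). Between the BCAM groups, batch 2 alone gave Klf2 0.74, Klf3 0.09, Klf4 0.45, Klf7 0.32 and Klf9 0.07. Limma on log2(TPM + 0.1) gave Klf3 0.27, Klf4 0.22, Klf7 0.37 and Klf9 0.13, and on log2(TPM + 1) 0.26, 0.21, 0.33 and 0.13. Length offsets gave Klf3 0.03 and Klf7 0.04, no filter Klf4 0.01 and Klf7 0.03, and leaving out differentiated 6 and 7 gave 0.01 for both. Leaving out 1 library moved Klf4 between -0.12 and 0.12 and Klf7 between -0.08 and 0.08. Against differentiated, batch 2 alone gave Klf6 -0.24 and Klf15 -0.53 in BCAM high, and Klf4 -0.18 and Klf7 -0.25 in BCAM low. In BCAM low Klf6 was 0.35 in batch 1 alone, 0.38 with either limma fit, 0.02 with protein-coding transcripts, 0.11 without differentiated 6 and 7 and 0.00 at most on leaving out 1 library (lowest -0.17), and Klf15 was 0.08 and 0.05 with the limma fits. The causes were not tested.

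Replicate numbers are shared by the groups, but the labels do not say that they mark an animal or day, so the main fit did not take them as pairing. After group and batch, 23 of 24 libraries correlated best with their own number, among the 5 or 3 numbers of their batch. The 24 same-number pairs had correlations of 0.0351 to 0.193, of which 9 were above 0.1. Same-numbered libraries may therefore share a source, and the p-values of the main fit take them as unpaired. What they share was not tested. With the replicate number as a block, the interaction between the BCAM groups was called for 198 genes and Klf7 turned to 0.01, and no member call changed in the 3 group comparisons.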
